A study of Mus musculus with 9 samples.

Results

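Clustered histone genes are the mouse genes named Hist1h to Hist4h, after the 4 chromosomal clusters that hold them. They were found by symbol in the deposited table of transcript levels. The pattern matched 73 rows with 67 symbols, and the 6 symbols that stood on 2 rows each (12 rows) were left out. The remaining 61 genes, of 23045 symbols on a single row, make up 6 genes of class H1, 14 of H2A, 17 of H2B (1 of them the pseudogene Hist3h2bb-ps), 12 of H3 and 12 of H4. Cluster 1 holds 49 of them, cluster 2 holds 8, cluster 3 holds 3 and cluster 4 holds 1. Each gene was chosen by its symbol alone. The family as a whole was selected on earlier FPKM comparisons of these libraries, so the values below are a description, and the adjusted p of a member stands only for its place in a fit over all genes.

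The cells were undifferentiated spermatogonia from testes of postnatal day 6 mouse pups, the germ cells from which sperm production is maintained. All 3 groups carried the same Id4-eGfp reporter transgene (line LT-11B6 on C57BL/6), in which EGFP reports Id4, a gene associated with spermatogonial stem cells. One group was all ID4-EGFP+ cells. The other groups were ID4-EGFP+ cells sorted for surface staining of the tetraspanin TSPAN8, TSPAN8-high being the most strongly stained 1/3 and TSPAN8-low the most weakly stained 1/3 (the high and the low fraction). Each group had 3 libraries, numbered as separate samples. Sorted fractions are mixtures of cells, so fewer cells of a type and less RNA per cell cannot be told apart in any value below. No source used here says whether these came from different litters or sort days, and p-values reflect variation among them only, which may be technical.

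Each nucleosome wraps DNA around an octamer of H2A, H2B, H3 and H4, and H1 binds the linker DNA between nucleosomes. Most clustered genes are replication-dependent: they are transcribed in S phase to package new DNA, and their messengers end in a conserved stem-loop in place of a poly(A) tail. The stem-loop is bound by SLBP, and the U7 snRNP directs the cut just behind it. The cDNA kit used here primes on poly(A) tails, so the values describe whichever histone messengers, or parts of them, were captured that way. A few clustered genes are germ cell specific, among them Hist1h2aa (TH2A), Hist1h2ba (TH2B) and the spermatocyte linker histone gene Hist1h1t.

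The stem-loop is shown because it sets these messengers apart from nearly all others and bears on how they are captured. It was searched for on the sense strand of the longest annotated transcript of each gene (GENCODE M21, build GRCm38, not the build of the deposited values). A 16-base stem-loop was found in 40 of the 61 genes, in 8 spellings, and in 22 of 21810 other protein-coding gene symbols (0.101%) under any of their transcripts. It began 21 to 54 bases after the stop codon, with a median of 31. Capitals mark both arms of the stem and lower case the loop. The form of Hist1h2bj was shared by 21 genes of classes H1, H2A, H2B and H3, and that of Hist1h3c by 6 genes of H1, H2B and H3. The 3 forms shown for H4 had other arms, and that of Hist1h4d was shared by 6 H4 genes.
Hist1h2bj: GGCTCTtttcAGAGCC
Hist1h3c: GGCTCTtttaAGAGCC
Hist2h2ac: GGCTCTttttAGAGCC
Hist1h4d: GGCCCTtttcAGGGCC
Hist1h4i: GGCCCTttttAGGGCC
Hist1h4b: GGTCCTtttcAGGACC

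The sort was checked by its own genes. Tspan8 stood at 34.04 ± 8.41 FPKM in the high and 9.73 ± 2.71 in the low fraction (SD, n = 3 each). FPKM counts fragments relative to transcript length and library size. Germ cell genes were present throughout, Ddx4 at 591 ± 58.4 and 404 ± 58.1 FPKM and Dazl at 1491 ± 202 and 1573 ± 246 in the same order. Of 13 spermatogonial genes listed, Gfra1, Etv5, Id4 and Nanos2 were higher and Kit and Stra8 lower in TSPAN8-high (limma, adjusted p from 0.00264 to 0.00604). The summed level of 13 Sertoli cell genes was 88.3 to 209.7 FPKM in TSPAN8-high, 12.9 to 126 in TSPAN8-low and 20.2 to 99.4 in all ID4-EGFP+. Their defining members Sox9, Amh and Wt1 stayed under 1 FPKM in every library. None of the 5 tested Sertoli genes passed the test without the replicate block and all 5 passed it, higher, with the block. Their median log2 fold change was 1.81 between the fractions and 1.44 in TSPAN8-high against all ID4-EGFP+, where 3 passed with the block. Those 5 were Clu, Cst12, Cst9, Rhox8 and Aard. The part of these cells in the results below was not tested. Leydig, endothelial and red blood cell genes were not testable at their low levels. Of the leukocyte genes 1, Cd68, was tested (0.59, limma adjusted p = 0.192, 0.0384 with the block), and of the peritubular genes 2, without a call. Relative library depth ranged from 0.856 to 1.05, with the first all ID4-EGFP+ library as the unit, and the absolute depth is unknown. It was 1.012 to 1.046 in TSPAN8-high and 0.856 to 0.945 in TSPAN8-low, so depth differed between the fractions without overlap. The part of depth in the results below was not tested.

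Levels differed strongly between classes. Summed over its members and averaged over the 9 libraries, H2A stood at 1567 FPKM, H4 at 611, H2B at 213, H3 at 85.04 and H1 at 26.7. H2A thus held 62.6% of the summed level and H4 held 24.4%. These sums and shares cover the members only. They leave out the symbols on 2 rows, among them Hist1h2ao and Hist1h2ap of H2A, at 1032 and 157 FPKM on their first rows. The shares of H2A and of its genes would differ with them. A few genes carried each class. Hist1h2ag, at 536 FPKM the most abundant member, held 34.2% of H2A. Hist1h4d, at 393, held 64.2% of H4, and Hist1h2bj, at 91.1, held 42.9% of H2B. Hist1h3c led H3 with 26.3 FPKM and Hist1h1a led H1 with 13.03. All members together made up 0.205 to 0.380% of all FPKM in a library.

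By library, the H2B sum was 228, 165 and 249 FPKM in all ID4-EGFP+, 132, 147 and 182 in the high and 209, 301 and 301 in the low fraction. All 3 TSPAN8-high libraries lay below all 3 TSPAN8-low libraries, with means of 154 ± 25.3 and 269.9 ± 53.2 (SD, n = 3), a ratio of 0.5696. The H2A sum was 1408, 1553 and 2112 FPKM in all ID4-EGFP+, 951, 1359 and 1511 in the high and 1119, 2059.7 and 2028 in the low fraction. Those groups overlapped, since the replicate 1 library of TSPAN8-low was below replicates 2 and 3 of TSPAN8-high, and the ratio of the fraction means was 0.734. The H3 means were 96.1 ± 26.3, 73.1 ± 23.4 and 85.8 ± 30.98 FPKM, the H4 means 639.5 ± 166, 621 ± 175 and 574 ± 186, and the H1 means 27.9 ± 6.01, 24.5 ± 5.97 and 27.8 ± 9.12, in the order all ID4-EGFP+, TSPAN8-high and TSPAN8-low. In these 3 classes the difference of the fraction means was less than the SD within a fraction. Within replicate numbers, the sums of H2B, H2A and H3 were lower in TSPAN8-high in each of the 3, that of H1 in 2 and that of H4 in 1. The H4 sum was the only one with the higher mean in the high fraction, a ratio of 1.08. Its log2 ratio of 0.114 became -0.112 when TSPAN8-low replicate 1 was left out, and was also below 0 when replicate 3 of the high fraction or of all groups was. The ratio of H3 turned positive (0.0127) when replicate 1 of the high fraction was left out, and that of H1 in that case too and, at 0.0877, when replicate 2 of the low fraction was.

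**Figure D1:**
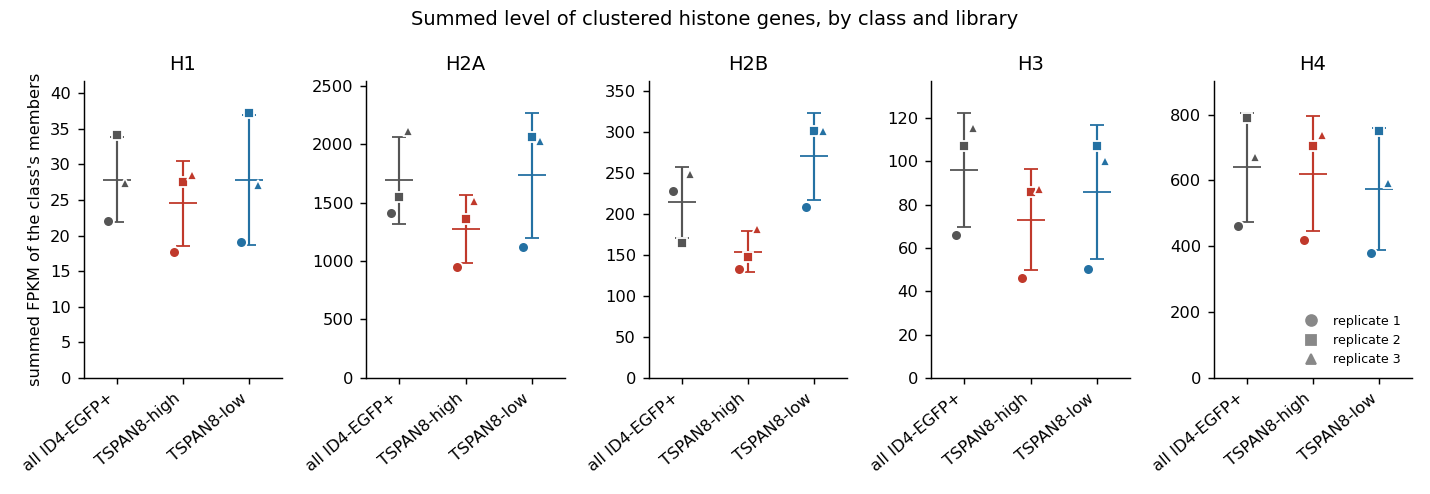
Summed FPKM of the members of each class (vertical axes, from 0, scaled per class) in each library of the 3 groups. Symbols are replicate numbers, the wide tick is the mean and the bar 1 SD (n = 3). The TSPAN8-high libraries lie below the TSPAN8-low libraries without overlap in H2B only, and the replicate 1 symbol is the lowest of the group in 14 of the 15 groups shown.

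For the tests, log2(FPKM + 1) was fitted with limma over all genes with at least 1 FPKM in at least 3 libraries, 11142 genes of which 53 were members. The other 8 members (2 of H1, 1 of H2A, 2 of H2B, 1 of H3 and 2 of H4) were too low. The members just inside that limit were Hist1h3f and Hist2h3c2, with 1.42 and 1.39 FPKM in the library that ranked the third, and those just outside were Hist4h4 and Hist1h1d, with 0.815 and 0.764. A call is a Benjamini-Hochberg adjusted p under 0.05 over all tested genes. Over all tested genes, libraries of equal replicate number deviated together, which was less clear over the members alone. The fit was therefore repeated with that number as a block, and this is given wherever it changes a call. Fold changes are differences on the log2(FPKM + 1) scale, which understates changes of low genes.

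Between the fractions, 2 of 53 tested members were lower in TSPAN8-high, where 2.15% of all tested genes were, and none was higher, where 3.41% were. Of all calls 61.4% were higher, and 41.5 to 45.5% under 3 other scalings. The count for the members is thus near that of all genes. With the replicate block 19 members were lower, where 7.34% of all genes were, and none was higher, where 11.8% were. That count was 3 without the filter on low values, 4 and 9 when replicate 2 or 3 of the low fraction was left out, and 7, 7 and 6 for replicates 1, 2 and 3 of the high fraction. Among the 19 were 10 of H2A, 7 of H2B, 1 of H3 and 1 of H4. At an unadjusted p under 0.05, 9 of the 53 members were lower and none higher, against 2448 of all 11142 genes in either direction. The 3 TSPAN8-high libraries lay below the 3 TSPAN8-low libraries for 6 members (11.3%), all of H2B, against 9.71% of all genes. Within each of the 3 replicate numbers TSPAN8-high was below TSPAN8-low for 31 members (58.5%), against 22% of all genes. Many members, above all of H2A, are near-identical copies whose values may not be separate measurements. The counts and shares of members in this paragraph are therefore not to be read as counts of independent genes. The median log2 fold change was -0.27 over members and 0.051 over all genes, and 43 of 53 members (81.1%) were below 0, against 43.4% of all genes. Single libraries moved this: the member median was -0.11 with 35 below 0 when replicate 2 of the low fraction was left out, -0.12 with 35 for replicate 1 of the high fraction, and -0.53 with 51 for replicate 1 of the low fraction. Without replicate 2 of all groups it was -0.16.

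By class, the medians of H2B and H2A were the lowest. The class median was -0.46 in H2B, with 14 of 15 members below 0, and -0.44 in H2A, with 13 of 13 below 0. It was -0.10 in H4 (8 of 10 below 0), -0.074 in H1 (2 of 4) and -0.0092 in H3 (6 of 11). The counts of H2A and H2B below 0 were the same under each of the 3 other scalings tried. Leaving out 1 library or 1 replicate number kept the medians of H2A (-0.72 to -0.23) and H2B (-0.57 to -0.24) below 0, whereas those of H4 (-0.37 to 0.15), H3 (-0.25 to 0.14) and H1 (-0.30 to 0.099) took either sign. The difference between classes was not tested.

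**Figure D2:**
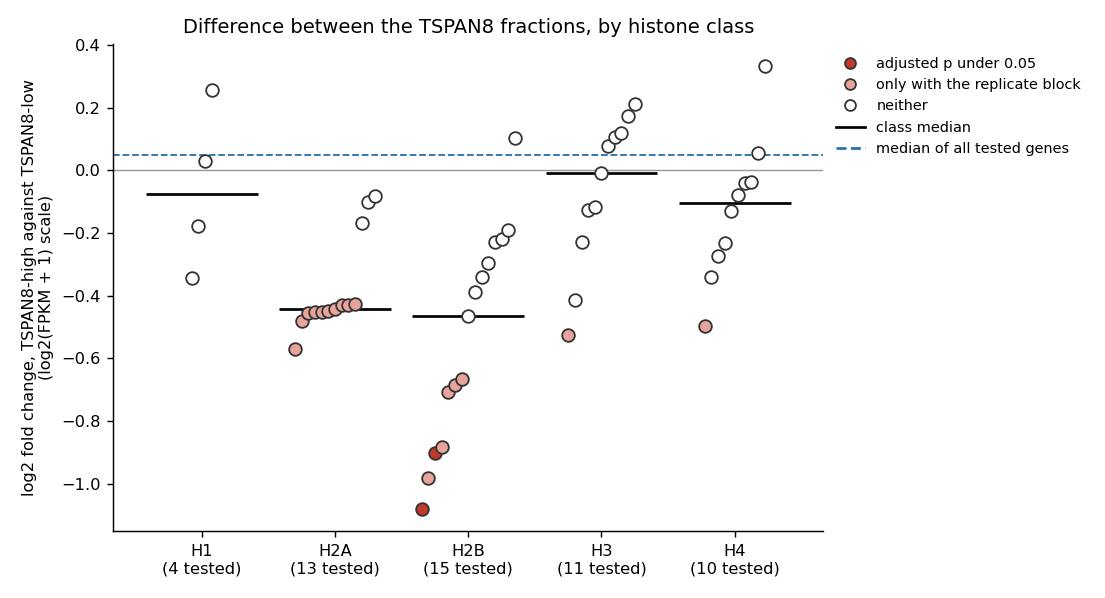
Log2 fold change of each tested member, TSPAN8-high against TSPAN8-low (vertical axis), by class. Filled points passed at an adjusted p under 0.05, pale points passed only with the replicate block, bars are class medians and the dashed line is the median of all tested genes at 0.051. The 2 filled points are H2B genes, at -1.08 and -0.90, and the pale points are mostly of H2A and H2B.

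Hist1h2ba encodes TH2B, the H2B of male germ cells that takes the place of somatic H2B during spermatogenesis. It stood at 6.14, 5.35 and 7.85 FPKM in all ID4-EGFP+, 4.13, 5.09 and 6.59 in the high and 10.1, 14.6 and 11.9 in the low fraction. Every TSPAN8-low library was above every library of the other groups, which overlapped each other. It fell in TSPAN8-high against TSPAN8-low by 1.08 on the log2 scale (SE 0.19, limma adjusted p = 0.0103, 0.00103 with the replicate block), the largest difference among the members. Without the replicate 2 libraries the adjusted p was 0.152 (log2 fold change -0.94).

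Hist1h2bj, the most abundant H2B gene, stood at 109, 64.3 and 101 FPKM in all ID4-EGFP+, 54.5, 60.4 and 73.6 in the high and 94.9, 125 and 136 in the low fraction. The fractions did not overlap, while the all ID4-EGFP+ libraries fell among both. It fell by 0.90 (SE 0.22, limma adjusted p = 0.0330, 0.00512 with the block). This call was lost without a filter on low values (adjusted p = 0.0925). It was also lost without replicate 1, 2 or 3 of all groups, without replicate 1 or 2 of TSPAN8-high, and without replicate 2 or 3 of TSPAN8-low (limma adjusted p from 0.0509 to 0.182), with fold changes of -0.96 to -0.80.

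Hist1h2bm stood at 34.7, 19.1 and 42.02 FPKM in all ID4-EGFP+, 16.8, 18.4 and 25.4 in the high and 31.6, 40.4 and 51.2 in the low fraction, again without overlap of the fractions. Its log2 fold change was -0.98 (95% interval -1.57 to -0.39, limma adjusted p = 0.0555, 0.00413 with the block). It passed under 2 of the 3 other scalings. Hist1h2bk stood at 13.97, 19.8 and 21.9 FPKM in the high and 20.97, 37.8 and 32.4 in the low fraction, where the lowest TSPAN8-low library lay under the highest TSPAN8-high one, and differed by -0.67 (adjusted p = 0.125, 0.0150 with the block).

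The lower H2B genes, chosen after their values were seen, had lower levels and similar differences. Hist1h2bp stood at 4.25 ± 0.876 FPKM in the high and 7.58 ± 1.52 in the low fraction (SD, n = 3) and Hist1h2bl at 6.61 ± 1.26 and 11.4 ± 3.04. Their log2 fold changes were -0.71 and -0.68, with limma adjusted p of 0.0529 and 0.0678, and of 0.00690 and 0.0117 with the block. Hist3h2ba, the only tested H2B protein gene of cluster 3, stood at 3.87, 1.97 and 1.07 FPKM in the high and 4.19, 4.69 and 5.37 in the low fraction, a wide spread in the first and a narrow one in the second. Its difference of -0.88 had an adjusted p of 0.0907 in limma, 0.0207 with the block. Hist1h2bb, whose fractions did not overlap either, differed by -0.46 and did not pass in either fit (adjusted p = 0.163 and 0.0578). At the other end, Hist2h2bb of cluster 2 was the 1 tested H2B gene above 0, at 0.10 (95% interval -0.48 to 0.69). Hist1h2be and Hist2h2be were under the limit for testing, with means over the 9 libraries of 0.512 and 0.124 FPKM.

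**Figure D3:**
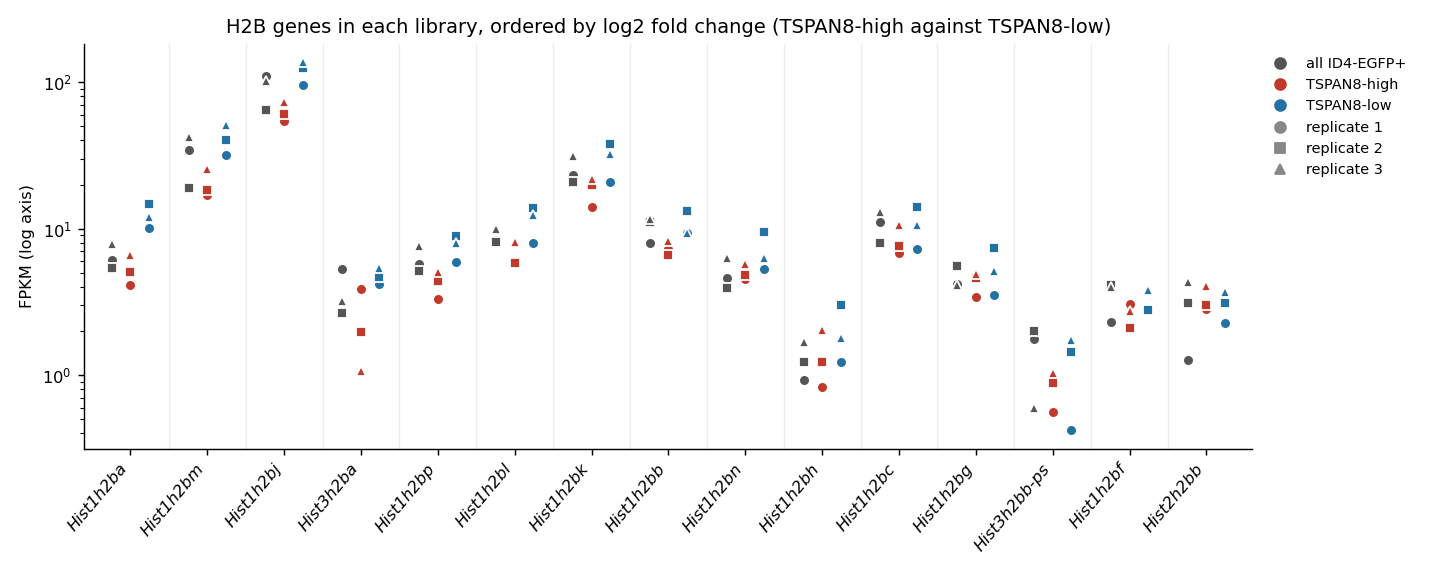
FPKM (log axis) of the 15 tested H2B genes in each of the 9 libraries, ordered from the most negative log2 fold change, TSPAN8-high against TSPAN8-low. Colours are groups and symbols replicate numbers. In Hist1h2ba all TSPAN8-low values (10.1 to 14.6) lie above all others, and in Hist2h2bb at the right the groups overlap.

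Hist1h2aa encodes TH2A, the H2A partner of TH2B, and stands head to head with Hist1h2ba. It stood at 11.9, 12.8 and 13.98 FPKM in all ID4-EGFP+, 20.1, 16.2 and 13.9 in the high and 19.97, 26.1 and 30.1 in the low fraction. All 3 TSPAN8-low libraries were above all ID4-EGFP+, whereas 1 TSPAN8-high library reached the level of the lowest TSPAN8-low library. Between the fractions it differed by -0.57 (SE 0.18, limma adjusted p = 0.0892, 0.0349 with the block). Against all ID4-EGFP+, TSPAN8-low differed by 0.91 in Hist1h2aa and by 0.83 in Hist1h2ba, with limma adjusted p of 0.408 and 0.6004, and of 0.0673 for both with the block, so neither passed. These were the 2 largest members' differences in that comparison. Kit, the receptor gene of differentiating spermatogonia, stood at 1.79 ± 0.293 FPKM in the high and 6.35 ± 1.67 in the low fraction. Sycp3, which encodes a protein of the synaptonemal complex, stood at 692 ± 189 and 1313 ± 271 and fell in TSPAN8-high by 0.94 on the log2 scale (limma adjusted p = 0.0400). Sycp3 was the 1 called gene of 5 meiotic genes listed, whose median log2 fold change was -0.055, and the others (Sycp1, Spo11, Tex101 and Hormad1) lay between -0.31 and 0.059. The summed level of the 5 was 1267 to 1656 FPKM in the high and 1893 to 2295 in the low fraction. The part of such cells in the TH2A and TH2B values was not tested.

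The promoter of this gene pair is shown because both genes had their highest values in the low fraction and their windows are largely the same DNA. RefSeq promoter windows (build GRCm38.p6, 250 bases before to 50 after the start) were matched for 55 of the 61 members. The windows of Hist1h2aa and Hist1h2ba overlap by 220 bases on opposite strands, and their annotated starts are 280 bases apart. The first run below is the 250 bases before the start of Hist1h2ba (RefSeq symbol H2bc1), at chr13:23934157-23934406 on the minus strand. The next runs are the same stretch before Hist1h2bj (H2bc11), at chr13:22042948-22043197, and Hist1h2bm (H2bc14), at chr13:21721794-21722043, both on the plus strand. Capitals mark 3 motifs on either strand: the octamer ATTTGCAT, the box CCAAT and the box TATAAA.
Hist1h2ba: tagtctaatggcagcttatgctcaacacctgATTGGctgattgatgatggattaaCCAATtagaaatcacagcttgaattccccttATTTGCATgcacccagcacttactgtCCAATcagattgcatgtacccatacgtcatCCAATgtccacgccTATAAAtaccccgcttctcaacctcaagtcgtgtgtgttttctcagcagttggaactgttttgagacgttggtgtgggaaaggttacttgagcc
Hist1h2bj: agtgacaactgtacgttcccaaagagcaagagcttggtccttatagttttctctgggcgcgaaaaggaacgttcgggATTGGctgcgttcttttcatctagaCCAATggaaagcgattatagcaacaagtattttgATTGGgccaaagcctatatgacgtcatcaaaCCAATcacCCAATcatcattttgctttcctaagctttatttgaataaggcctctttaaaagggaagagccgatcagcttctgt
Hist1h2bm: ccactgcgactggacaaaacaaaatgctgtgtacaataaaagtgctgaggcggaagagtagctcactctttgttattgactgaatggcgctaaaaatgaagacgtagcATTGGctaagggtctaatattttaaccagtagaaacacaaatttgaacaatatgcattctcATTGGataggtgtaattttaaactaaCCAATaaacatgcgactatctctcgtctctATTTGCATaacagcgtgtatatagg

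The octamer, a binding motif of POU factors known from H2B promoters, was found in 13 of the 55 windows (23.6%), against 1.75% of all 27025 promoters. All 13 were of H2A (7 of 14) or H2B (6 of 14), and none was found in H1, H3 or H4. A CCAAT box was found in 47 windows (85.5%), against 37.9% of all promoters, and at least 2 of them in all 14 H2A and all 14 H2B windows. In H4 only 3 of 11 windows held one. A TATA box was found in 33 windows (60%), against 14.2%. Genes on opposite strands share these windows, so the counts are not independent of each other. The tested H2B genes with the octamer had a median log2 fold change of -0.57 between the fractions (6 genes) and those without it -0.68 (7 genes), and in H2A the medians were -0.43 (7) and -0.45 (6). Among the 3 promoters printed, the octamer was in some only, Hist1h2ba and Hist1h2bm holding it and Hist1h2bj not.

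In all, 8 pairs of an H2A and an H2B gene had overlapping promoter windows, each on opposite strands. Both genes had negative fold changes in all 8 pairs, and the H2B gene had the more negative value in 6. Of all tested genes of these classes, 13 of 13 in H2A and 14 of 15 in H2B were below 0. The shared sign within pairs is therefore no result about the shared windows. In the pair of the most abundant genes, Hist1h2ag differed by -0.46 (95% interval -1.05 to 0.14) and Hist1h2bj by -0.90 (-1.37 to -0.43), so the intervals overlap. The difference within a pair was not tested. Across the 9 libraries the levels of such partners correlated with a median Pearson's r of 0.671 (0.433 to 0.928), close to the 0.644 over all 195 combinations of a tested H2A and a tested H2B gene. Values from 1 library share its depth and handling, so these coefficients are a description.

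**Figure D4:**
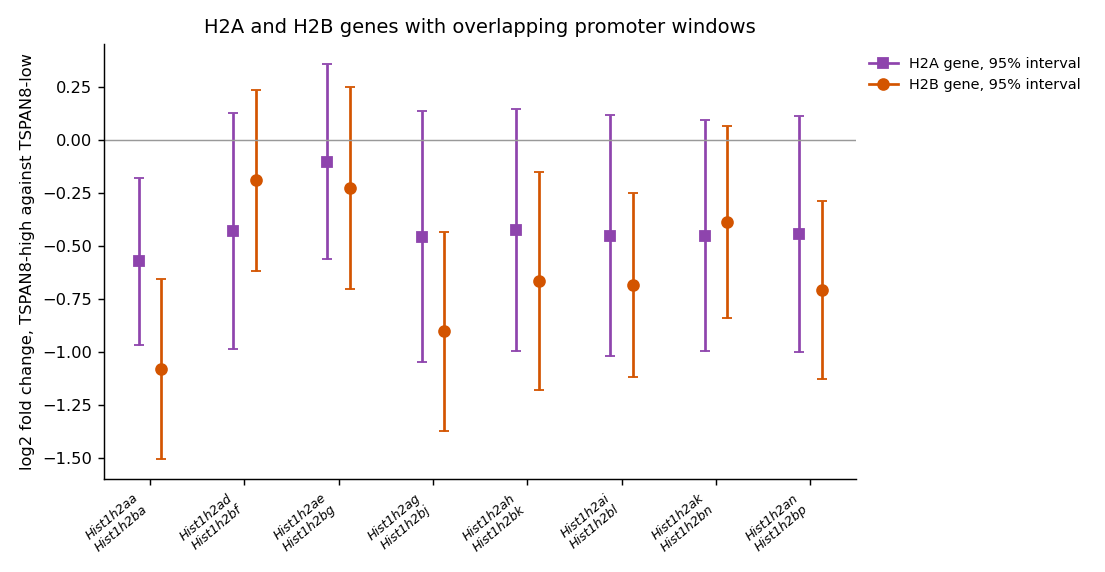
Log2 fold change, TSPAN8-high against TSPAN8-low, of the 8 H2A and H2B gene pairs with overlapping promoter windows. Squares are the H2A gene and circles the H2B gene of a pair, with bars for the 95% interval from limma. All 16 values lie below 0, and the intervals within each pair overlap.

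The abundant H2A genes were nearly uniform. Hist1h2ag stood at 471, 521 and 719 FPKM in all ID4-EGFP+, 312, 473 and 511 in the high and 378, 722 and 715 in the low fraction. Within each replicate number TSPAN8-high was the lowest of the 3 groups, but over all libraries the groups overlapped. Its log2 fold change between the fractions was -0.46 (SE 0.27, limma adjusted p = 0.3498, 0.0380 with the block). Hist1h2ab, Hist1h2ad, Hist1h2af, Hist1h2ah, Hist1h2ai and Hist1h2an, with means of 64.1 to 236 FPKM, differed by -0.45 to -0.43 (adjusted p of 0.335 to 0.371, and of 0.0257 to 0.0455 with the block). Hist1h2ae, at 99.4 ± 15.8 FPKM in the high and 109 ± 29.1 in the low fraction, was the exception among the abundant genes with -0.10, and passed in neither fit. With the block, 10 H2A genes were called, but 1 or none when a single TSPAN8-high or TSPAN8-low library other than replicate 1 of TSPAN8-low was left out, or without the filter on low values, while 4 to 7 H2B genes were called under the same omissions and 2 without the filter. Hist2h2ac of cluster 2, chosen after its values were seen, stood at 14.5 ± 3.61 and 15.4 ± 3.45 FPKM in the high and low fraction and 9.37 ± 3.49 in all ID4-EGFP+, and did not pass against the latter (log2 fold changes 0.61 and 0.69, limma adjusted p of 0.458 and 0.6004).

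The coding sequences of H2A members were 75.4 to 99.5% identical between genes, and each gene's nearest copy was a median of 98.5% identical. How reads from such copies were assigned is not known, so the values of the copies may not be separate measurements. This was not tested. Among tested H2A pairs at least 98% identical, the median correlation of log2(FPKM + 1) over the 9 libraries was 0.991 (20 pairs), and among those under 90% it was 0.217 (24 pairs). In H2B these medians were 0.738 (14 pairs) and 0.530 (44 pairs). The H2A pairs under 90% differed widely, and nearly all held Hist1h2aa or Hist3h2a. Those of Hist1h2aa had mostly low r and those of Hist3h2a mostly high r, so their median reflects these genes. Hist3h2a and Hist1h2ae, 88.97% identical, had r of 0.927, and Hist1h2aa and Hist1h2ae, 84.6% identical, had -0.102. Hist2h2ac and Hist1h2ad, 91.5% identical, had 0.245, so r did not follow identity alone. In H3 the nearest copy was a median of 98.8% identical, yet pairs at least 98% identical had a median r of 0.658 (15 pairs). The nearest copies of Hist1h2ba and Hist1h2aa in their classes were 88.7% (Hist1h2bj) and 84.6% (Hist1h2ae) identical. Of 130 pairs of an H2A and an H4 gene, 17 also had r above 0.95.

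H4 was led by Hist1h4d, at 272, 563 and 387 FPKM in all ID4-EGFP+, 281, 479 and 519 in the high and 217, 482 and 333 in the low fraction. Its replicate 2 and 3 libraries reached up to 563 FPKM and the groups overlapped. It differed by 0.33 (95% interval -0.38 to 1.05, limma adjusted p = 0.586), the highest value of any member between the fractions. Hist1h4c, at 90.6 ± 16.1 FPKM in the high and 111 ± 25.7 in the low fraction, differed by -0.27 (adjusted p = 0.4597). Hist1h4m, at 19.8 ± 7.65 and 27.7 ± 8.54 FPKM, differed by -0.50 and passed only with the block (limma adjusted p = 0.366, 0.0450 with the block). The mean sum of the class was higher in the high fraction, as was Hist1h4d, while 8 of its 10 tested members were below 0.

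In H3, Hist1h3c stood at 21.3, 36.95 and 39.98 FPKM in all ID4-EGFP+, 11.6, 26.8 and 27.6 in the high and 12.2, 31.3 and 29.4 in the low fraction. The replicate 1 library was the lowest of each group by a wide margin, and the fractions overlapped. It differed by -0.13 between the fractions (95% interval -0.97 to 0.71), a value that turned positive without 1 of several libraries. Hist1h3a, chosen after its values were seen, stood at 16.3 ± 7.10 and 23.6 ± 9.75 FPKM and differed by -0.52 (limma adjusted p = 0.477, 0.0158 with the block). The other tested H3 genes lay between -0.41 (Hist1h3h) and 0.21 (Hist1h3g), and none passed in either fit.

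Of the linker histone genes, Hist1h1a stood at 8.43, 20.7 and 13.2 FPKM in all ID4-EGFP+, 6.19, 14.3 and 12.5 in the high and 10.2, 19.6 and 12.2 in the low fraction and differed by -0.34 (95% interval -1.09 to 0.40). Hist1h1e, at 4.21 ± 0.807 and 3.38 ± 0.9005 FPKM, lay on the other side with 0.26 (95% interval -0.13 to 0.64). None of the 4 tested H1 genes passed in either fit. Hist1h1t, the linker histone gene of spermatocytes, stayed at 0 to 0.585 FPKM.

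The comparisons with all ID4-EGFP+ share those 3 libraries with each other, and each fraction's libraries with the comparison above. In TSPAN8-high against all ID4-EGFP+, none of the 53 members was called by limma, where 0.144% of all genes were in either direction. At an unadjusted p under 0.05 there were 5 of the 53 members, 4 of them lower, and 1085 of all 11142 genes in either direction. With the replicate block 4 were lower (1.86% of all genes): Hist1h3c (-0.60, adjusted p = 0.0226), Hist1h3a (-0.57, 0.0376), Hist1h2ab (-0.53, 0.0384) and Hist1h3h (-0.65, 0.0404). The median over members was -0.29 and over all genes -0.0085. By class it was -0.42 in H2A, -0.38 in H2B, -0.12 in H4, -0.058 in H3 and -0.051 in H1. When libraries were left out the member median ranged from -0.39 to -0.12, those of H2A (-0.56 to -0.22) and H2B (-0.46 to -0.25) stayed below 0, and those of H3 and H4 took either sign, the latter without TSPAN8-high replicate 1.

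In TSPAN8-low against all ID4-EGFP+, none of the members was called by limma, where 0% of all genes were, and none with the block, where 0.0449% were. At an unadjusted p under 0.05 there were 3 members, all higher: Hist1h2aa, Hist1h2ba and Hist2h2ac. Of all 11142 tested genes, 910 were at that level in either direction. The class median was 0.26 in H2B, with 12 of 15 members above 0, and -0.028 in H2A, with 6 of 13 above 0. The H2B median was 0.34 to 0.37 under the 3 other scalings, but 0.14 without TSPAN8-low replicate 2 and 0.081 without replicate 2 of all groups. The medians of H3, H4 and H1 were -0.074, -0.059 and -0.0042. Those of H2A, H3 and H4 each changed sign under 2 of the 3 other scalings and that of H1 under all 3, and all 4 took either sign when libraries were left out.

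The replicate 1 libraries stood apart from the others in these genes. In all ID4-EGFP+, TSPAN8-high and TSPAN8-low the replicate 1 library held the lowest value of its group for 36, 46 and 51 of the 53 tested members, against 29.4, 40.1 and 38.9% of all tested genes. In all ID4-EGFP+ this held for 4 of 15 genes of H2B and 1 of 4 of H1, against 12 of 13 in H2A. The member sum was 1567 to 2185 FPKM in the 3 replicate 1 libraries and 2325 to 3253 in the other 6. Without them the median over members between the fractions was -0.34, with 44 of 53 below 0 and 4 called (Hist1h2aa, Hist1h2ba, Hist1h2bl and Hist3h2ba). Without the replicate 2 libraries it was -0.16, with 42 below 0 and none called, and without replicate 3 it was -0.28, with 42 below 0 and 1 called (Hist1h2ba).

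Genes that act on histones or alongside them were listed for comparison. Of 18 genes of histone messenger processing, 17 were tested and none was called in either fit between the fractions, and none had an unadjusted p under 0.05. Slbp, the stem-loop binding protein, stood at 637 ± 45.6 FPKM in the high and 647 ± 22.9 in the low fraction and differed by -0.025 (95% interval -0.31 to 0.26). The smallest p in this list was that of Ncbp1 of the cap-binding complex, at 0.31 (limma adjusted p = 0.238), followed by the endonuclease gene Cpsf3 at 0.30, the U7 snRNP gene Lsm10 at -0.36 and Zfp473, a U7-associated protein, at 0.40. Of 15 polyadenylation genes none was called, and 1, Fip1l1, was higher with the block.

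Of 24 S phase genes, 1 fell: Ccne2, cyclin E2, at 20.1, 18.6 and 14.97 FPKM in the high and 34.6, 30.6 and 34.3 in the low fraction, without overlap (-0.86, limma adjusted p = 0.0113). That call was lost without replicate 2 or replicate 3 of all groups (adjusted p of 0.122 and 0.102). The list's median was 0.19, against 0.051 over all genes, with 17 of 24 above 0, where 43.4% of all genes were below 0. With the block 4 genes were higher (Prim1, Pola1, Mcm3 and Mcm7), where 11.8% of all genes were. In that fit 2 were lower (Ccne2 and Gins2), where 7.34% of all genes were. Prim1 and Pola1, of the priming polymerase, differed by 0.37 and 0.49 (adjusted p of 0.0374 and 0.0383 with the block).

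Of 22 tested histone chaperone genes none was called by limma. At an unadjusted p under 0.05 there were 3, against 2448 of all 11142 genes in either direction. With the block 3 were higher, where 11.8% of all genes were. They were Chaf1b of the CAF-1 complex (0.56, adjusted p = 0.00413), the FACT subunit gene Ssrp1 (0.48, 0.0219) and Supt6 (0.43, 0.0335). Of the replacement histones, many of which are also made outside S phase from polyadenylated messengers, 11 of 15 were tested, with a median of -0.17 and 3 above 0. H2afy2, which encodes macroH2A2, rose from 24.4 ± 1.87 FPKM in TSPAN8-low to 43.7 ± 4.09 in TSPAN8-high (0.82, limma adjusted p = 0.0159), a call lost without replicate 1, 2 or 3 of all groups or without replicate 2 or 3 of TSPAN8-high (adjusted p up to 0.167). With the block H2afy (macroH2A1) also rose (0.56, 0.0219) and H2afj fell (-0.58, 0.0242). The abundant H3f3b and H2afz, at 2038 and 2802 FPKM over the 9 libraries, differed by -0.17 and -0.20 and did not pass.

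Levels differed with the annotated end of the transcript. Of the 61 genes, 17 had a model that ended within 100 bases after the stem-loop, with a median level of 22.1 FPKM, and all 17 were tested. In 23 genes the model ran more than 100 bases past the stem-loop, with a median of 4.03 FPKM, and 10 of these had an AATAAA polyadenylation signal within the last 60 bases. In the other 21 no stem-loop was found. In 18 of them the model held at most 50 bases after the stop codon or no coding sequence, and their median was 8.73 FPKM. The ranks of transcript length and level correlated with -0.396 over the 61 genes and -0.205 over the 53 tested, as a description across genes. FPKM divides by length, so a model longer than the captured messenger lowers the value, and no source used here names the annotation behind the deposited values. In 27 genes the model was shorter than the fragment size of 522 bp in the labels, with a median of 12.2 FPKM. In the other 34 the median was 4.97 FPKM. How such short models affect the deposited values was not tested. The median log2 fold change between the fractions was -0.43 for genes whose model ended within 100 bases of the stem-loop, -0.12 for those with longer models and -0.41 for the 18 short models.

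**Figure D5:**
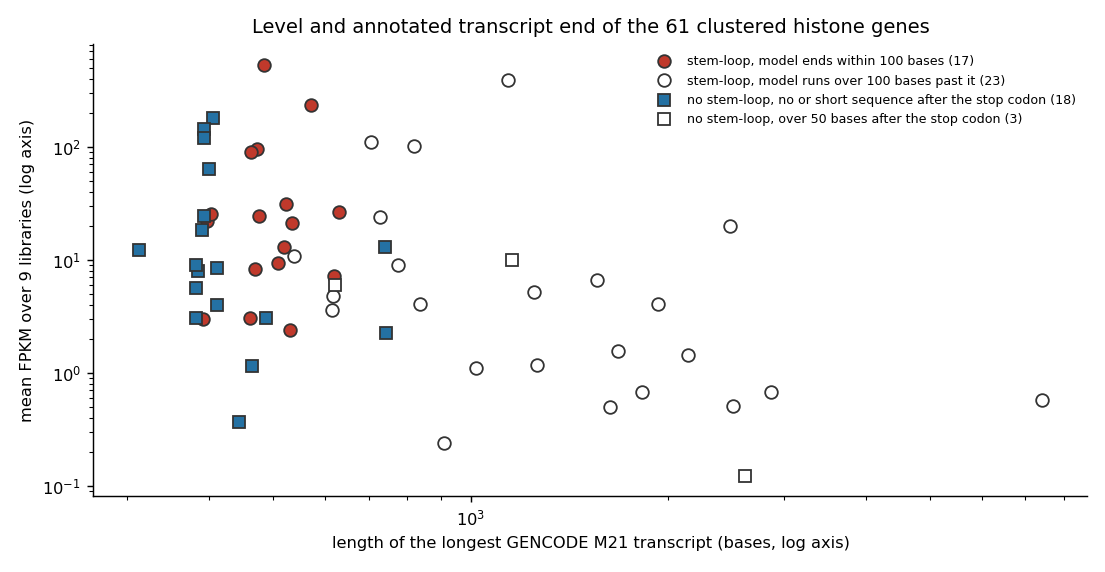
Mean FPKM over the 9 libraries (log axis) of the 61 members against the length of their longest annotated transcript (log axis). Red circles are models that end within 100 bases of the stem-loop, open circles models that run further, blue squares models with no stem-loop and at most 50 bases after the stop codon, and open squares the 3 others. Hist1h4d, at 393 FPKM, is the highest open circle.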

How the data were processed

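RNA from 3 libraries in each of 3 groups was sequenced as paired ends from SMART-Seq v4 cDNA and Nextera XT libraries, per the labels' protocols. This chemistry does not mark strand. The authors deposited Cufflinks FPKM values per library, which were the values tested. The authors also deposited a table of FPKM-derived signal values normalized between libraries, by a method not stated, used as an alternative only. Build mm9, Bowtie2 2.2.3.0, TopHat2 2.0.12, FastQC and Cufflinks are named per the submitters' processing notes. Neither a Cufflinks version nor an annotation is named there. The 262 symbols on more than 1 row (768 rows) were left out. Limma 3.58.1 in R 4.3.3 (lmFit, eBayes with trend, two-sided) was run on log2(FPKM + 1) over 11142 genes with at least 1 FPKM in at least 3 of the 9 libraries, in one fit. The fit was tested on simulated data with independent noise in each library, without shared deviations of equally numbered libraries. Exact tests of 3 against 3 libraries cannot go below p = 0.1 and were not used. The members and gene lists were chosen with earlier results of these data known, so no list was tested and no count supports the choice. Named genes were called members, the 15 most abundant, the highest of each class, the 2 on either side of the filter, and called or up to 4 lowest-p genes of each list; others are said to be chosen after their values were seen, or are named to complete a count. Over all tested genes, deviations from group means correlated between equally numbered libraries (r of 0.265 to 0.481 over 9 pairs, against -0.456 to 0.277 over 18 others), a pattern in the data, so the number served as a block in a second fit. Over the members alone these ranges were -0.041 to 0.578 and -0.585 to 0.497, which overlap broadly. Deviations within a group sum to 0, so the r of the 2 kinds of pairs are not independent of each other. Relative depth was read from steps of FPKM below 0.1. Python 3.11.15, Biopython 1.88 and matplotlib 3.10.9 served for sequences and plots. Alternatives were other pseudocounts, filters, scalings and fits, and leaving out libraries.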

Additional observations from a re-analysis of the deposited data

How the results depend on the processing

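Between the fractions 2 members were called; 1 was without a filter on low values, 4 with the authors' normalized values, 5 after scaling to a common median and 19 with the replicate block. Leaving out a replicate, here 1 library or 1 replicate number of all groups, gave 0 to 4 (0 without replicate 2 of all groups). With the block, the count was 3 without the filter, and 4 to 19 when 1 library was left out, an alternative chosen after seeing the data; omitting TSPAN8-low replicate 2 gave 4, replicate 3 of the high fraction 6, its replicate 1 or 2 gave 7, replicate 3 of the low fraction 9, and there were 12 without all ID4-EGFP+ replicate 3. For TSPAN8-high against all ID4-EGFP+ the block gave 4 in place of 0 members, and leaving out a replicate gave 0 to 0, as for TSPAN8-low. The block changed no other count of members. Over all genes, 619 calls between the fractions became 293 without the filter, 360 with FPKM of at least 5, 2131 with the block and 30 to 639 without 1 replicate; 61.4% of calls were higher, and 42.1, 41.5 and 45.5% with the authors' normalized values, a common median and quantile normalization. For TSPAN8-high against all ID4-EGFP+, 16 became 0 without the filter, 7 with the authors' normalized values, 344 with the block, 27 with only the 2 groups compared and 0 to 112 without 1 replicate. For TSPAN8-low, 0 became 5 with the block and 0 to 1 without 1 replicate. The cause of these changes was not tested. Without 1 library, or 1 replicate number of all groups, the log2 ratio of class sums ranged from -0.967 to -0.699 in H2B and -0.682 to -0.274 in H2A. It ranged from -0.503 to 0.0127 in H3, -0.112 to 0.353 in H4 and -0.392 to 0.0877 in H1. Signs turned in genes near 0: Hist2h3c2 stood at 0.047 with pseudocount 0.1 and at 0.051, 0.010, 0.12, 0.099 and 0.14 leaving out high replicate 1, high 2, low 2, low 3 or all of replicate 2; Hist1h2ae at 0.030, 0.026 and 0.015, and Hist1h3c at 0.26, 0.11 and 0.062, leaving out high replicate 1, low 2 or low 3; Hist1h3f at -0.055 without TSPAN8-low replicate 1. The lowest values on leaving out a replicate were -0.25 in Hist2h3c2, -0.35 in Hist1h2ae and -0.54 in Hist1h3c. Absolute depth is unknown, so counting error cannot be given for genes near 1 FPKM.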

Other observations

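The 6 histone symbols that stood on 2 rows each were not members, since a value could not be assigned to 1 gene. Hist1h2ao was the most abundant of them, at 1175 ± 278 FPKM in all ID4-EGFP+, 796 ± 198 in TSPAN8-high and 1123 ± 328 in TSPAN8-low on its first row (SD, n = 3), and its other row had nearly the same values. This level is above that of any member. Hist1h2ap stood at 110.4, 92.5 and 135 FPKM in all ID4-EGFP+, 137, 129 and 194 in TSPAN8-high and 104, 218 and 296 in TSPAN8-low on its first row, so that replicates 2 and 3 of TSPAN8-low were above all other libraries. TSPAN8-high was above all ID4-EGFP+ in each replicate number, where in Hist1h2ag it was below. Hist1h4n stood at 6.95 to 20.9 FPKM on 1 row and near 0 on the other, and Hist2h2aa1 at 6.90 to 13.1 on its first row. Hist1h2bq stood at 1.88 ± 0.551 in TSPAN8-high and 3.30 ± 0.727 in TSPAN8-low. Hist2h2aa2 was near 0 in all but 1 library. No test was made of these rows.

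Hist4h4, the single member of cluster 4, was under the limit for testing. It stood at 0.569, 0.528 and 0.323 FPKM in TSPAN8-high and 0.962, 0.913 and 0.815 in TSPAN8-low, so that its fractions did not overlap although no library reached 1 FPKM.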
